A study of Mus musculus with 9 samples.

Results

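The genes described here are 8 members of the transforming growth factor beta (TGF-beta) superfamily pathway on an expression array: the ligand genes Tgfb1, Tgfb2 and Tgfb3, the activin subunit gene Inhba, the bone morphogenetic protein (BMP) gene Bmp4, the receptor genes Tgfbr1 and Tgfbr2, and Smad7. They were taken by name, and every probe set annotated to them alone was used, 18 probe sets in all. The array named 18193 genes through such probe sets. The tissue was Reissner's membrane, the thin sheet that parts the endolymph of the cochlear duct from the perilymph above it, dissected by hand from adult mice. No strain, genotype or sex is used here. The fresh group was extracted without culture, the incubated group was kept for 24 h as explants, and the dexamethasone group was kept for 24 h with the synthetic glucocorticoid dexamethasone at 100 nM. The dose is in nM in the series design and on dexamethasone array A, but in mM on the labels of arrays B and C. Each group had 3 arrays, lettered A to C, hybridized with pooled membranes, so the p-values measure the spread between chips, which may be technical, and the number of arrays limits the precision.

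TGF-beta and activin ligands bind paired type II and type I receptor kinases, which phosphorylate Smad2 and Smad3, while BMP ligands use related receptors and Smad1, Smad5 and Smad9. The phosphorylated Smads join Smad4, enter the nucleus and regulate target genes, among them Smad6 and Smad7, whose products block the receptors in a negative feedback loop. The TGF-beta ligands are secreted in a latent form, held in the matrix until integrins or proteases release them, and the pathway is best known for control of matrix production, epithelial growth and, through BMP4, inner ear development.

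RefSeq promoters (GRCm38.p6) were matched for 6 of the 8 members. Those of Tgfb2 and Bmp4 are shown because these genes had the largest falls among the ligands in culture and were both higher with dexamethasone, and that of Tgfb1 because its signal differed the other way in both comparisons. Each window runs 5′ to 3′ along the gene's strand from 250 bases before the start site to 50 bases after it, and capitals mark the motif matches found on either strand.
Tgfb2: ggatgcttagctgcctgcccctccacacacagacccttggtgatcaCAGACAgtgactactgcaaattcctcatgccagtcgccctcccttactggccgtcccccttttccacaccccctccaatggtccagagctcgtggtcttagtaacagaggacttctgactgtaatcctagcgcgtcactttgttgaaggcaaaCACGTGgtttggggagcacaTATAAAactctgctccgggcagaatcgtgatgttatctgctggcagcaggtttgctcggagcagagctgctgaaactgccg
Bmp4: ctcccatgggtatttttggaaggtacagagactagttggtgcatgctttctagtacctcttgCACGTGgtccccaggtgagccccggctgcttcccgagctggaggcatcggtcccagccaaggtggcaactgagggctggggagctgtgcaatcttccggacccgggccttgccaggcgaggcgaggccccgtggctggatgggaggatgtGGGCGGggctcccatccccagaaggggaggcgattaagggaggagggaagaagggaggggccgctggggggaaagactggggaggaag
Tgfb1: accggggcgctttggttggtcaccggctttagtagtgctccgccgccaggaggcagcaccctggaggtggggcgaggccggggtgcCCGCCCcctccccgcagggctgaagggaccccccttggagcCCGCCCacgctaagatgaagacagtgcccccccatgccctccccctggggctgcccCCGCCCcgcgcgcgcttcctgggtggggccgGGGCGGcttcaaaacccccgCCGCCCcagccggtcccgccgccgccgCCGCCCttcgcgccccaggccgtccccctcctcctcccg
The windows lie at chr1:186705940-186706239 (minus strand), chr14:46390620-46390919 (minus strand) and chr7:25686752-25687051 (plus strand). The Tgfb2 window held a TATA box (TATAAA) whose first base lay 31 bases before the start site, an E-box (CACGTG) 51 bases before it and a Smad CAGACA box 204 bases before it. The Bmp4 window also held the E-box letters, 188 bases before the start site, and a GC box (GGGCGG) 38 bases before it. The Tgfb1 window held 6 GC boxes and had a GC content of 77%, against 54.3% for Tgfb2, 64% for Bmp4 and a median of 52.7% over all promoters. Of 32851 promoter windows searched in the same way, 13.6% held the TATA letters, 7.15% the E-box, 35.7% the GC box and 21% the CAGACA box. The letters of an AP-1 site (TGANTCA), a cyclic AMP response element (TGACGTCA), the Smad palindrome (GTCTAGAC), a full glucocorticoid response element (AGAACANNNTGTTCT) or its half-site AGAACA were in none of the matched members' windows, while 7.81%, 1.79%, 0.213%, 0.00913% and 19% of all windows held them. The BMP Smad site (GGCGCC), in 11.9% of all windows, was found among the members in a window of Tgfbr1. These matches are descriptions of letters and do not show sites in use.

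The arrays were alike within groups, with correlations of log2 signals between 0.984 and 0.989, and differed more between fresh and incubated (0.935 to 0.937) than between incubated and dexamethasone (0.973 to 0.976). The labelled tissue was checked against marker genes. All 7 epithelial markers were above a signal of 200 in every group, whereas Msln, Upk3b and Wt1, of a list of mesothelium and fibroblast markers, were below 200 on all fresh arrays. Msln was at least 6.01-fold higher in incubated arrays, with a mean of 1203 ± 37.1 (SD, n = 3). The other 4 genes of the mesothelium and fibroblast list, Dcn, Pdgfra, Lum and Thy1, had fresh means of 20348, 3397, 1835 and 1018, and the summed signal of all 7 ran from 26168 to 27363 in fresh, 10278 to 11917 in incubated and 13078 to 13950 in dexamethasone arrays. The summed signal of 7 epithelial markers ran from 35302 to 36944 in the fresh group, from 75081 to 78709 in the incubated group and from 86307 to 91196 in the dexamethasone group. The summed signal of 6 fibrocyte markers of the spiral ligament and limbus, neighbours of the membrane, ran, in the same order, over 58182 to 59914, 2059 to 2151 and 3031 to 3271, with Coch, Otos and Otor below 200 on all incubated arrays. The summed signal of 6 neuronal markers was 22955 to 24035, 138 to 179 and 158 to 243, and that of 6 supporting and hair cell markers was 8985 to 9279.6, 312 to 395 and 709.9 to 768. These differences run with the comparisons below, and their part in the changes of the member genes was not tested. In bulk tissue, fewer cells of a type and less RNA per cell cannot be told apart.

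A probe set was tested where its signal reached 200 on at least 3 of the 9 arrays, which 10 of the 18 member probe sets did. They covered 7 members, all but Tgfb1, and each is represented by its brightest tested probe set unless another is named. Of the other 8 probe sets, 7 lay below 200 on all arrays, namely 1 each of Tgfb1, Inhba and Tgfb2 and 2 each of Tgfbr1 and Tgfbr2, none of them above 79.6. Changes are log2 differences of signal plus 32 with their standard error (SE), from limma, with Benjamini-Hochberg adjusted p over all 18913 tested probe sets, and a gene was called at an adjusted p under 0.05. Folds, other than those given as at least, are taken from these changes and are not ratios of the mean signals printed beside them. Signals of different probe sets are not compared with each other.

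After 24 h in culture, the ligand genes Tgfb2, Tgfb3 and Bmp4 and the type II receptor gene Tgfbr2 fell, and Smad7, the intracellular inhibitor, rose. Of the other ligand genes, Inhba was measured above 200 only in fresh arrays, and Tgfb1, which read higher in incubated arrays, did not pass the filter. Of the 7 tested members, 2 were called higher and 5 lower in incubated than in fresh membranes, Inhba among the latter having passed the filter only through the fresh arrays. Over all 10242 tested genes, 36.0% were called higher and 40.7% lower, so that a call is common in this comparison. The incubated and fresh arrays did not overlap for any of the 7, which for Inhba the filter itself favoured. How often this held over all tested genes was not counted, so it is not a result about the members.

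**Figure D1:**
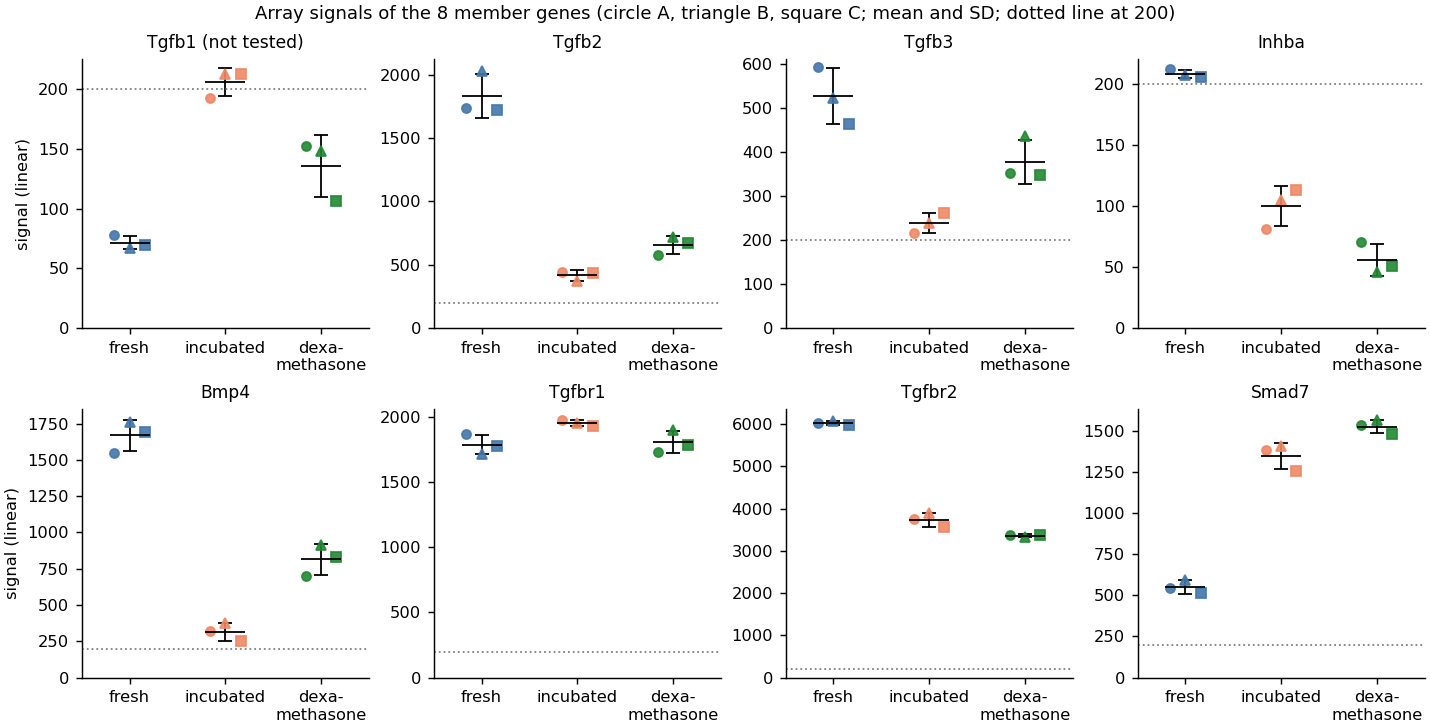
Array signals (linear scale, vertical axes from 0) of the brightest tested probe set of each member, and of the brightest for Tgfb1, in the fresh, incubated and dexamethasone groups; circles, triangles and squares are arrays A, B and C, bars show the mean and SD of 3 arrays, and the dotted line marks a signal of 200. Bmp4, Tgfb2 and Tgfb3 are high in fresh, lowest in incubated and intermediate in dexamethasone arrays, while Smad7 is lowest in fresh arrays.

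Tgfb2 encodes the TGF-beta isoform that mouse knockouts link to inner ear and heart development. Its signals were 1742, 2034 and 1721 in fresh arrays A, B and C, 441, 369 and 435 in incubated arrays, and 579.8, 721 and 670 in dexamethasone arrays. The 3 groups did not overlap, with fresh highest and incubated lowest. The mean was 1832 ± 175 (SD, n = 3) in fresh and 415 ± 40.1 in incubated arrays, a 4.17-fold fall (log2 change -2.06 ± 0.098 SE, adjusted p = 1.09e-09). Further probe sets of the gene fell too. Probe set 1423250_a_at read 1350.1, 1172 and 1258 in fresh and 343, 351 and 376 in incubated arrays (-1.73 ± 0.079, adjusted p = 7.38e-10). Probe set 1450922_a_at read 582, 628 and 530.2 in fresh and 219, 209.9 and 355 in incubated arrays (-1.09 ± 0.17, adjusted p = 6.95e-05).

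Tgfb3, the third isoform, had signals of 593, 524 and 465 in fresh, 216, 239.9 and 262 in incubated, and 352, 437 and 347 in dexamethasone arrays. Every fresh array lay above every cultured array. The fall from 528 ± 64.0 to 239 ± 22.9 was 2.06-fold (-1.04 ± 0.12, adjusted p = 3.51e-06).

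Bmp4, a BMP ligand with a part in semicircular canal formation, showed the largest change among the members. Its signals were 1550.4, 1761 and 1696 in fresh, 322, 376 and 251 in incubated, and 700, 914 and 831 in dexamethasone arrays. The groups stood apart in the same order as for Tgfb2. The mean fell 4.93-fold, from 1669 ± 108 to 316 ± 62.7 (-2.30 ± 0.13, adjusted p = 3.77e-09).

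Inhba encodes the beta A subunit, which forms activin A as a homodimer. It read 212, 208 and 206 in fresh, 81.5, 105.5 and 113 in incubated, and 70.5, 46.1 and 50.8 in dexamethasone arrays. It passed the filter only through the fresh arrays, where it sat just above 200, so the filter itself required a higher signal there than in the other groups. The fresh mean of 209 ± 3.22 gave a signal at least 1.04-fold lower in incubated arrays (log2 change -0.87 ± 0.15, adjusted p = 1.78e-04).

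Tgfb1 encodes the isoform found most widely in tissues and was not tested, because its signal reached 200 on only 2 of the 9 arrays. It read 77.5, 66.9 and 69.5 in fresh, 192, 213 and 212.5 in incubated, and 153, 148.5 and 106 in dexamethasone arrays. The groups did not overlap, and the order was opposite to that of Tgfb2 and Bmp4, with incubated highest. With all fresh arrays below 200, the incubated mean of 206 ± 11.8 was at least 1.03-fold higher. With a floor of 100 in place of 200, Tgfb1 was tested and called higher in incubated than in fresh arrays (1.20 ± 0.14, adjusted p = 6.34e-06).

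Tgfbr2 encodes the type II receptor that binds TGF-beta directly. It read 6022, 6074 and 5990 in fresh, 3746, 3901 and 3563 in incubated, and 3378, 3319.9 and 3373 in dexamethasone arrays. The fresh arrays stood well above all others, and the cultured groups lay close together without overlapping. The fall from 6029 ± 42.6 to 3737 ± 170 was 1.61-fold (-0.69 ± 0.045, adjusted p = 2.18e-08).

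Tgfbr1 encodes the type I receptor kinase, also known as ALK5, that Tgfbr2 activates. It read 1869.9, 1721 and 1777 in fresh, 1977, 1954 and 1931 in incubated, and 1733, 1903 and 1790.2 in dexamethasone arrays. The incubated arrays lay above the others by a small margin, and fresh and dexamethasone arrays overlapped. Its rise on incubation, 1.09-fold (0.13 ± 0.054, adjusted p = 0.0495), sat at the threshold. The call was lost under quantile normalization (0.10, adjusted p = 0.117), with a floor of 100 (0.0550), no filter (0.0733), no intensity trend (0.0787), a pseudocount of 1 (0.0502), the replicate block (0.0728) or the 2 compared groups alone (0.0525). It was also lost without fresh array B or C (adjusted p = 0.165 and 0.0989), incubated array A, B or C (adjusted p = 0.113, 0.0888 and 0.0713) or dexamethasone array A or C (0.0504 and 0.0578).

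Smad7 encodes the inhibitory Smad that binds activated type I receptors and recruits ubiquitin ligases to them, and it is itself a target gene of the pathway. It read 545, 594 and 514 in fresh, 1379.7, 1406 and 1256 in incubated, and 1532, 1562 and 1482 in dexamethasone arrays. The fresh arrays lay far below all cultured arrays. The rise from 551 ± 40.4 to 1347 ± 80.4 was 2.37-fold (1.24 ± 0.069, adjusted p = 4.35e-09). Its other probe set, 1443771_x_at, whose suffix marks probes that may hybridize to several transcripts, read 164.5, 188 and 231 in fresh and 270.4, 355 and 546 in incubated arrays (0.86 ± 0.30, adjusted p = 0.0207).

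**Figure D2:**
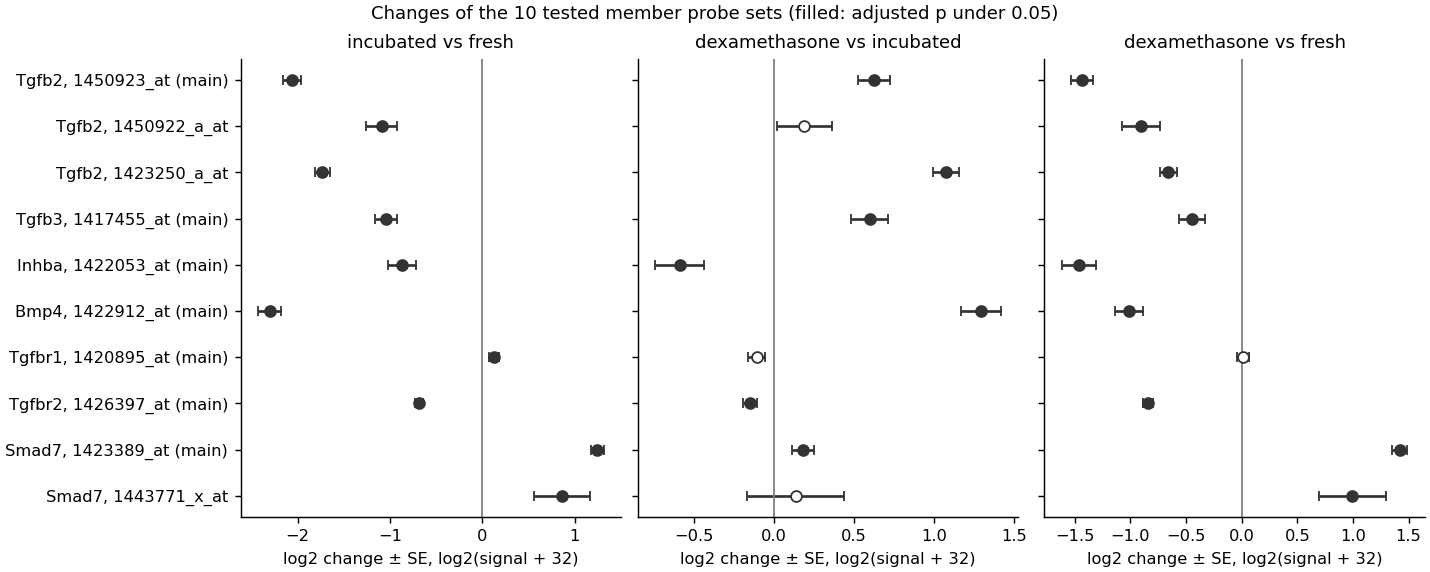
Log2 changes (points) with their SE (bars) of the 10 tested member probe sets in the 3 comparisons, filled where the adjusted p was under 0.05. The Tgfb2, Tgfb3 and Bmp4 probe sets lie left of 0 against fresh in both cultured groups and right of 0 for dexamethasone against incubated, except that probe set 1450922_a_at of Tgfb2 was not called there and turned to -0.19 under hybridization control scaling, under which Smad7 also turned.

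The deposited signals were scaled to a common mean per array, so the choice of scaling was varied. With each array centred on its median signal, the median change over all tested probe sets in incubated against fresh arrays moved from -0.05 to 0.28, and with scaling to the spiked hybridization controls it also became 0.28. For dexamethasone against incubated it moved from 0.01 to -0.11 and -0.39. The called genes then split differently. Against 3691 higher and 4171 lower genes as deposited, incubation gave 5649 and 2505 with median centring and 5649 and 2485 with the control scaling. Against 2280 and 2937 as deposited, dexamethasone gave 1411 and 4247 with median centring and 531 and 7573 with the control scaling. On incubation, each of the 7 tested members kept its direction under all 3 scalings tried. Tgfb2 lay between -2.01 and -1.73 under them, and Smad7 between 1.29 and 1.58. The size of the Tgfbr2 fall depended more on the scaling, at -0.81 with quantile normalization, -0.36 with median centring and -0.34 with the control scaling.

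**Figure D3:**
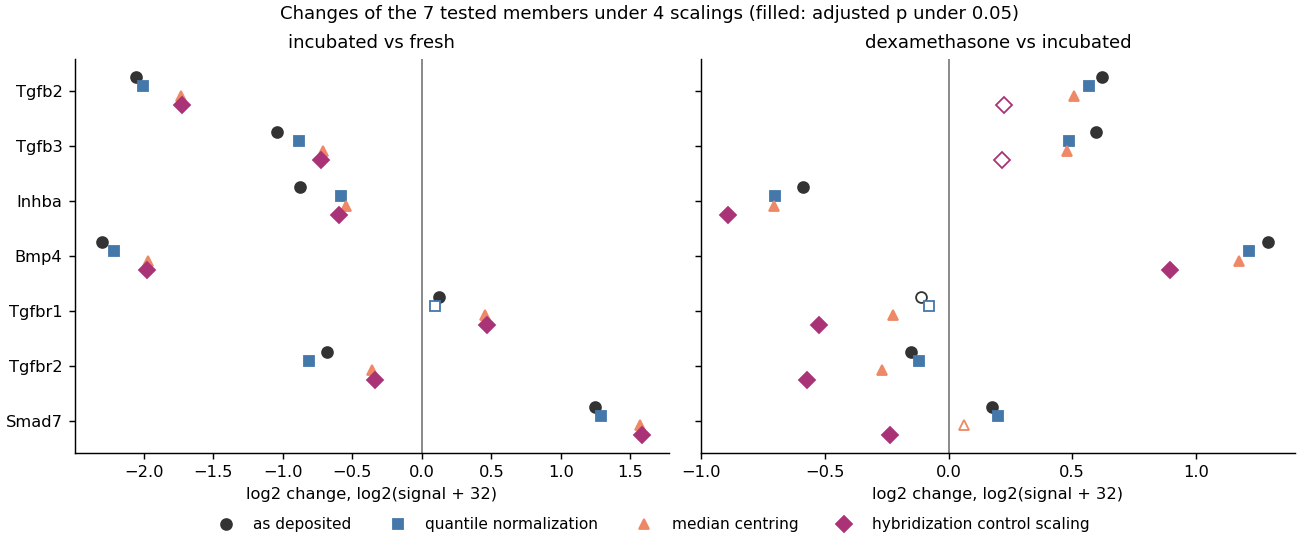
Log2 changes of the 7 tested members in incubated against fresh (left) and dexamethasone against incubated arrays (right), with signals as deposited and under 3 other scalings; filled symbols have an adjusted p under 0.05. Directions on incubation hold under all 4, whereas with dexamethasone Smad7 turns from 0.18 to -0.24 under hybridization control scaling and the Tgfb2 and Tgfb3 symbols are open there.

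Dexamethasone was compared with incubation alone to see what the glucocorticoid changed in culture. In the signals as deposited, Bmp4, Tgfb2 and Tgfb3 were higher with dexamethasone, and Tgfbr2 was slightly lower. Of the 7 tested members, 4 were called higher, including Smad7, which turned under hybridization control scaling, and 2 lower, Tgfbr2 and Inhba, the latter with all arrays of both groups below 200, while Tgfbr1 was not called. Over all tested genes, 22.3% were called higher and 28.7% lower.

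Bmp4 rose 2.45-fold with dexamethasone, from 316 ± 62.7 to 815 ± 108 (1.29 ± 0.13, adjusted p = 4.25e-06), and every dexamethasone array lay above every incubated array. It was called higher under all scalings, with the smallest value, 0.90, under hybridization control scaling. Tgfb2 rose 1.54-fold to 657 ± 71.5 (0.62 ± 0.098, adjusted p = 1.92e-04). Its probe set 1423250_a_at read 782, 730.4 and 847 with dexamethasone, a 2.10-fold rise (1.07 ± 0.079, adjusted p = 4.39e-07), and stayed called under the control scaling (0.68, adjusted p = 4.81e-06), where the brightest probe set did not (0.23, adjusted p = 0.0832). Probe set 1450922_a_at read 309.9, 341 and 240.3, overlapping the incubated arrays, and was not called (0.19 ± 0.17, adjusted p = 0.374). Tgfb3 rose 1.51-fold to 379 ± 50.1 (0.60 ± 0.12, adjusted p = 0.00100) and was not called under the control scaling (0.22, adjusted p = 0.133).

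Inhba was lower with dexamethasone than in incubated arrays (adjusted p = 0.00592), with means of 55.8 ± 12.9 and 100.03 ± 16.5. Both lie below 200, so no fold is given. Tgfb1 lay at 136 ± 25.8 with dexamethasone, also below 200 on all 3 arrays. With a floor of 100 it was called lower than in incubated arrays (-0.52, adjusted p = 0.0105). Tgfbr2 fell 1.11-fold, from 3737 ± 170 to 3357 ± 32.3 (-0.15 ± 0.045, adjusted p = 0.0131), and without incubated array B the adjusted p was 0.0518. Its change was -0.27 with median centring and -0.57 under the control scaling. Tgfbr1 differed by -0.11 ± 0.054 (adjusted p = 0.102, 95% interval -0.23 to 0.01), and was called lower with median centring (-0.23, adjusted p = 0.00579) and the control scaling (-0.53, adjusted p = 5.24e-06).

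Smad7 was called higher with dexamethasone by 1.13-fold, from 1347 ± 80.4 to 1525 ± 40.3 (0.18 ± 0.069, adjusted p = 0.0465), and turned to -0.24 (adjusted p = 0.0131) under hybridization control scaling. With median centring it was 0.06 (adjusted p = 0.508). The call was also lost with a floor of 100 (adjusted p = 0.0507), no filter (0.0764), no intensity trend (0.0617) and the mean over its probe sets (0.415), and without dexamethasone array A, B or C (adjusted p = 0.101, 0.123 and 0.0589), fresh array A (0.0548) or incubated array A or C (0.0662 and 0.171). Its probe set 1443771_x_at read 242, 709.7 and 408 with dexamethasone and was not called (0.13 ± 0.30, adjusted p = 0.734).

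Markers of tissue next to the membrane also differed between dexamethasone and incubated arrays, in both directions. Of the 6 fibrocyte markers, 4 were called higher and 1 lower (3 and 2 under the control scaling), and 4 of the 5 tested supporting and hair cell markers were called higher and 0 lower under every scaling. Among those called higher, Otor, Sox2 and Myo7a were below 200 on all arrays of both groups. Of the 4 tested markers of strial marginal cells, 0 were called higher and 2 lower, Atp1b2 (-0.53) and Kcnq1 (-0.39), and of the 6 neuronal markers 1 was called higher and 1 lower. All 6 neuronal markers were below 200 on all arrays of both groups. Of the 7 epithelial markers, 6 were called higher and 1 lower, but 0 and 5 under the control scaling. Their part in the rises of Bmp4, Tgfb2 and Tgfb3 was not tested.

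Against fresh tissue, the dexamethasone group shared arrays with both comparisons above and is set beside them for the levels alone. Of the 7 tested members, 1 was called higher and 5 lower, among them Inhba, which passed the filter only through the fresh arrays, with 35.4% of all tested genes higher and 42.7% lower. With dexamethasone, Bmp4 remained 2.02-fold below fresh (-1.01 ± 0.13, adjusted p = 8.41e-06), Tgfb2 2.71-fold below it (-1.44 ± 0.098, adjusted p = 2.70e-08) and Tgfb3 1.36-fold below it (-0.45 ± 0.12, adjusted p = 0.00368). The other tested probe sets of Tgfb2 lay less far below fresh, 1.58-fold for 1423250_a_at (-0.66 ± 0.079) and 1.87-fold for 1450922_a_at (-0.90 ± 0.17). The Tgfb3 call was lost with median centring (-0.23, adjusted p = 0.0764). Tgfbr2 lay 1.79-fold below fresh (-0.84 ± 0.045, adjusted p = 2.88e-09), and Smad7 2.67-fold above it (1.42 ± 0.069, adjusted p = 1.09e-09). For Tgfbr1 the difference was 0.015 ± 0.054 (adjusted p = 0.809, 95% interval -0.10 to 0.13), and median centring called it higher (0.23, adjusted p = 0.00333).

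For each tested member, the genes with the closest pattern over the 9 arrays were found by the root mean square difference of log2 signals centred per gene, among 10235 other genes. The closest to Tgfb2 were Lama2, a laminin subunit gene, at 0.094, and Fxyd2, which encodes a sodium pump regulator, at 0.13. Those to Tgfb3 were Cep68 (0.092) and Mga (0.094). Those to Bmp4 were Epas1, encoding the hypoxia-inducible factor HIF-2 alpha, at 0.17, and Nebl at 0.19. By this measure, which is not scaled to the size of a gene's change, Bmp4 had the least close match of the 7. Vmac (0.099) and Fchsd2 (0.11) were closest to Inhba. Mrfap1 (0.034) and Ythdf3 (0.041) were closest to Tgfbr1, and Rere (0.034) and Prkdc (0.037) to Tgfbr2. Mybbp1a (0.039) and Grwd1 (0.062), which encode nucleolar and ribosome assembly proteins, were closest to Smad7. Epas1 went from 2417 (fresh) to 481 (incubated) and 980.4 (dexamethasone), the same order as Bmp4, and Mybbp1a from 1274 to 3030.2 and 3483, the same order as Smad7.

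The other genes of the pathway were described by lists chosen by role, 69 of whose 83 array genes were tested. On incubation 34 were called higher and 25 lower, with a median change of 0.12, against -0.04 over all tested genes, and 42 and 19 with median centring or the control scaling. Acvr2b, Ltbp2, Ltbp4, Col1a1 and Hey1, among the lower as deposited, passed the filter only through the fresh arrays. With dexamethasone against incubated, 27 were higher and 23 lower as deposited, with a median of -0.02 against -0.03. Acvr2b and Hey1 among the higher, and Ltbp2 among the lower, had all arrays of both groups below 200. These counts became 24 and 25 with quantile normalization, 18 and 31 with median centring, and 14 and 46 with the control scaling.

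Among 7 other ligand genes, 2 were higher and 3 lower on incubation, or 3 and 2 with median centring or the control scaling. Bmp6 read 879, 793 and 882.5 in fresh, 48.5, 62.7 and 63.7 in incubated, and 188, 230 and 244 in dexamethasone arrays. Like Bmp4, it was high in fresh tissue, lowest in incubated and between them with dexamethasone, at least 4.26-fold lower on incubation (adjusted p = 9.28e-11) and at least 1.10-fold higher with dexamethasone (adjusted p = 9.48e-07). Bmp7 fell in both steps, from 900.2 ± 63.0 to 334 ± 44.6 (-1.36 ± 0.14, adjusted p = 1.34e-06) and to 211 ± 47.7 (-0.60 ± 0.14, adjusted p = 0.00283). Bmp2 rose on incubation, from 192 ± 11.8 to 534 ± 149 (1.31 ± 0.16, adjusted p = 9.20e-06), the opposite direction to Bmp4. Inha, the inhibin alpha gene, was called lower on incubation (-0.22) but turned to 0.11 and 0.12 with median centring and the control scaling.

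Among 9 other receptor genes, 2 were higher and 5 lower on incubation, or 4 and 3 with median centring or the control scaling. Tgfbr3, the betaglycan co-receptor that presents TGF-beta2 to Tgfbr2, fell from 10717 ± 164 to 7271 ± 145 (-0.56 ± 0.041, adjusted p = 6.44e-08). Acvr1, a type I receptor for BMPs and activins, rose from 2110 ± 88.2 to 3307 ± 183 (0.64 ± 0.059, adjusted p = 5.81e-07). Acvr2b, an activin type II receptor gene, was at least 1.43-fold lower (adjusted p = 9.35e-06). It passed the filter only through the fresh arrays, so the filter itself favoured this fall. With dexamethasone 2 were called higher and 1 lower as deposited, and 0 higher and 8 lower under the control scaling. The counts were 1 and 1 with quantile normalization and 0 and 3 with median centring. Acvr2b, among the 2 higher as deposited, had all arrays of both groups below 200.

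Among 6 other Smad genes, 2 were higher and 2 lower on incubation, or 4 and 1 with median centring or the control scaling. Smad3, the mediator of TGF-beta and activin signals, rose from 2003 ± 54.8 to 4333 ± 373 (1.10 ± 0.064, adjusted p = 7.45e-09) and was lower with dexamethasone at 3189 ± 186 (-0.44 ± 0.064, adjusted p = 1.17e-04). Smad6, the inhibitory Smad of the BMP branch, moved opposite to Smad7 on incubation. It read 857, 881 and 841 in fresh, 562, 543 and 453 in incubated, and 743, 679 and 845 in dexamethasone arrays. It fell on incubation (-0.70 ± 0.094, adjusted p = 1.92e-05) and was higher with dexamethasone (0.51 ± 0.094, adjusted p = 6.08e-04), except under the control scaling (0.11, adjusted p = 0.279).

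Of 10 intracellular inhibitors, 7 were higher and 1 lower on incubation, with a median of 0.50. Pmepa1, a TGF-beta target whose product sequesters receptor Smads, rose from 411 ± 7.11 to 2019 ± 16.9 (2.21 ± 0.057, adjusted p = 4.43e-12). Tgif1, a Smad co-repressor gene, was at least 1.66-fold higher (adjusted p = 5.24e-08), and Smurf1, a ubiquitin ligase gene, rose from 314 ± 36.8 to 699 ± 38.6 (1.08 ± 0.10, adjusted p = 5.66e-07). With dexamethasone 3 were called higher and 3 lower, and 1 and 9 under the control scaling.

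Of 7 extracellular antagonists, 3 were higher and 3 lower on incubation. Sostdc1, a BMP antagonist gene, fell from 1700 ± 39.1 to 292 ± 26.6 (-2.42 ± 0.092, adjusted p = 1.47e-10). Fst, encoding follistatin, which binds activin, had means of 225 ± 19.3 (fresh), 129.9 ± 23.8 (incubated) and 316 ± 19.4 (dexamethasone). It was at least 1.12-fold lower on incubation (adjusted p = 3.12e-04) and at least 1.58-fold higher with dexamethasone (adjusted p = 1.38e-05). Fstl3, a follistatin relative, was at least 1.79-fold higher on incubation (adjusted p = 1.54e-07) and rose again with dexamethasone (0.82 ± 0.10, adjusted p = 3.79e-05).

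Of 11 genes of latency and activation, 6 were higher and 4 lower on incubation. Ltbp2, a microfibril protein gene of the latent TGF-beta binding protein family, was at least 8.47-fold lower (adjusted p = 9.47e-10), and Itgb8, a subunit of an activating integrin, fell from 2526 ± 71.6 to 1109 ± 42.4 (-1.17 ± 0.055, adjusted p = 1.02e-09). Ltbp2 and Ltbp4, both among the 4 lower, passed the filter only through the fresh arrays, so the filter itself favoured a fall. Itgb6, a subunit of another activating integrin, was at least 1.45-fold higher (adjusted p = 4.26e-07) and rose further with dexamethasone, from 289.7 ± 51.9 to 581 ± 33.2 (0.94 ± 0.13, adjusted p = 5.50e-05). With dexamethasone 4 of the 11 were higher and 5 lower, or 2 and 8 under the control scaling. Ltbp2, among the 5 lower, had all arrays of both groups below 200.

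**Figure D4:**
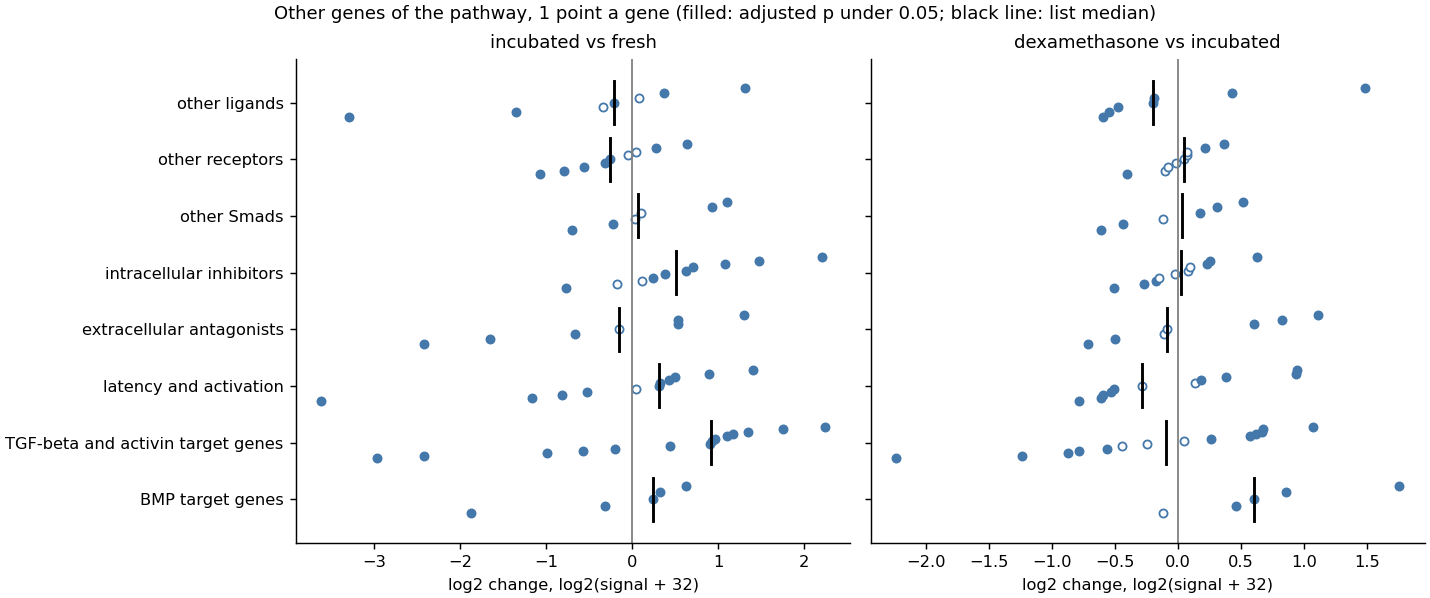
Log2 changes of the 69 other tested pathway genes (1 point a gene, filled where the adjusted p was under 0.05) by list, for incubated against fresh (left) and dexamethasone against incubated arrays (right), with the list median as a black line. Intracellular inhibitors have a median of 0.50 and TGF-beta and activin target genes a median of 0.92 on incubation; with dexamethasone the counts are those of signals as deposited, and scaling to the hybridization controls changed them from 27 higher and 23 lower to 14 and 46.

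Of 14 TGF-beta and activin target genes, 9 were higher and 5 lower on incubation, with a median of 0.92. Col1a1, among the 5 lower, passed the filter only through the fresh arrays. Tgfbi, read by a probe set of the x_at kind, rose from 3054 ± 162 to 7817 ± 653 (1.35 ± 0.064, adjusted p = 1.18e-09), as did its 3 other probe sets, and Lox, which crosslinks collagen, from 2598 ± 147 to 5596 ± 215 (1.10 ± 0.052, adjusted p = 1.13e-09). Col1a2, a collagen gene, fell from 4981 ± 161 to 2498 ± 167 (-0.99 ± 0.059, adjusted p = 8.42e-09). With dexamethasone 6 were higher and 5 lower, or 6 and 6 with quantile normalization, 5 and 7 with median centring and 4 and 7 under the control scaling. Matrix genes differed among themselves. Tgfbi fell to 3288 ± 150.03 (-1.24 ± 0.064, adjusted p = 2.56e-08) and Col3a1 from 1915 ± 262 to 378 ± 32.3 (-2.24 ± 0.092, adjusted p = 3.90e-09), while Lox rose to 8948 ± 265 (0.67 ± 0.052, adjusted p = 6.89e-07).

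Of 5 BMP target genes, 3 were higher and 2 lower on incubation. With dexamethasone against incubated, 4 were higher and 0 lower as deposited, but 3 higher and 1 lower under each of the 3 other scalings. Hey1, among the 4 higher, lay below the filter's floor on all arrays of both groups. Its signals overlapped there, at 43.6 to 60 in incubated and 56.1 to 106 in dexamethasone arrays. Hey1 was also among the 2 lower on incubation, having passed the filter only through the fresh arrays, at 235.3 to 300.4. Id1, encoding an inhibitor of helix-loop-helix factors that BMP Smads induce, read 1083, 1118 and 1033 in fresh, 1817, 1665 and 1580 in incubated, and 5895, 5603 and 5832 in dexamethasone arrays. Its arrays stood apart in all groups, with dexamethasone far above the others, and its change with dexamethasone was 1.76 ± 0.059 (adjusted p = 6.91e-10). Id2 rose with dexamethasone from 1788 ± 134 to 3260.2 ± 136 (0.86 ± 0.080, adjusted p = 3.21e-06) and Id3 from 1798 ± 48.0 to 2746 ± 75.5 (0.60 ± 0.047, adjusted p = 7.17e-07). Id4 was not called by its brightest probe set (-0.12 ± 0.053, adjusted p = 0.0694), while 2 of its 3 tested probe sets were called lower and 0 higher.

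**Figure D5:**
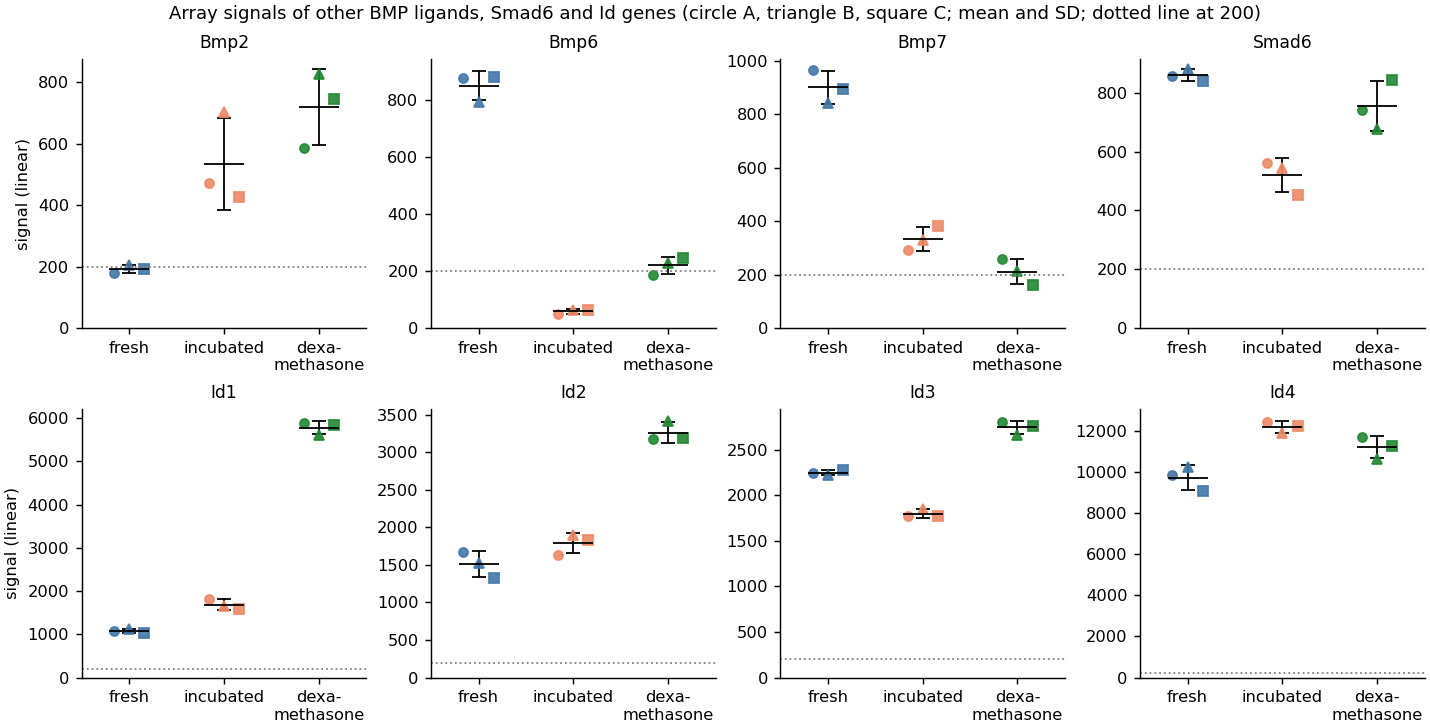
Array signals (linear scale, vertical axes from 0) of Bmp2, Bmp6, Bmp7, Smad6 and the genes Id1 to Id4 in the 3 groups, with symbols, bars and dotted line as in the plot of member signals. Bmp6 and Smad6 are lowest in incubated arrays, as Bmp4 is, and Id1 reads 5603 to 5895 in dexamethasone arrays against 1033 to 1817 in the others.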

How the data were processed

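RNA from pooled Reissner's membranes was purified with an RNeasy Micro kit, amplified in 2 rounds and measured on 9 Affymetrix arrays, 3 per group, per the labels' protocols. Each probe set has a deposited signal intensity on a linear scale, brought by the authors to a target of 500 per array, per the labels. How probes were summarised is not given in the sources used here. In the absence of detection calls, 200 was taken as the floor. The array holds 45101 probe sets: 64 controls, 34945 with 1 gene symbol, 932 with several and 9160 with none. Only probe sets with 1 symbol were named, and 204 of their gene IDs were not in the RefSeq list used.

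Linear models with 1 mean per group were fitted to log2 of signal plus 32 on all 9 arrays in limma 3.58.1 (R 4.3.3, data handling with data.table at 1.17.8), with eBayes and an intensity trend, on 18913 probe sets that reached 200 on at least 3 arrays. Benjamini-Hochberg adjustment was made per comparison, and the script was tested on simulated data. Fold changes come from this scale and understate those of dim genes. Where all arrays of a group lay under 200, the change is given as at least the other group's mean over 200. Incubated was compared with fresh and dexamethasone with incubated; dexamethasone with fresh was secondary. Members and lists were chosen with earlier results of these data known. Genes described with values are all members, and genes picked from the up to 4 per pathway list and comparison with the smallest adjusted p and not both means under 200. For each tested member the 2 genes closest in pattern are also named. Some of the up to 4 were left out, among them Acvr2a and Smad2, which each had 1 probe set called higher and 1 lower on incubation. A few other genes are named only for lying below 200. Of 153 list entries, 144 matched the array. Array letters did not pair samples: deviations from group means correlated between -0.062 and 0.164 for arrays of the same letter. Alternatives were 3 scalings (quantile, median, and the 18 spiked hybridization control probe sets), other pseudocounts and filters, no trend, the compared groups alone, the letter as a block, means over probe sets, and leaving out each array. Tables and figures used Python 3.11.15, pandas 2.3.3, NumPy 2.4.6 and matplotlib 3.10.9.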

Additional observations from a re-analysis of the deposited data

How the results depend on the processing

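Of 438 log2 changes of the 7 tested members under 21 alternative settings, 402 kept their direction and their side of the threshold, 29 lost a call, 3 gained it and 4 turned. Tgfb2, Tgfb3, Bmp4, Inhba, Tgfbr2 and Smad7 kept both on incubation under every setting in which they were tested. Scaling to the hybridization controls turned Smad7 with dexamethasone against incubated to -0.24, and Tgfbr1 with dexamethasone against fresh to -0.057, a difference that ran from -0.021 to 0.047 when each array was left out and was called in neither case. With that scaling, members called higher with dexamethasone against incubated were 1 in place of 4 and lower 4 in place of 2, and pathway genes 14 higher and 46 lower. Members called higher on incubation were 1 in place of 2, through the loss of Tgfbr1, with pseudocount 1, quantile normalization, no trend, the 2 compared groups alone and the array letter as a replicate block, and 1 to 2 when each array was left out. With a floor of 100 or no filter Tgfbr1 was also lost, and the count stayed at 2 because Tgfb1 was then tested and called. The block, which does not pair these samples, gave Tgfbr1 an adjusted p of 0.0728 and 14130, 9811 and 14369 called probe sets in the 3 comparisons, against 14213, 9936 and 14419. Members called lower with dexamethasone against incubated were 1 with a floor of 400, which left Inhba untested, and 1 to 2 when each array was left out, 1 without incubated array B. Members called higher with dexamethasone against fresh were 2 in place of 1 with median centring, which added Tgfbr1, and with a floor of 100 or no filter, which added Tgfb1. No setting moved the count of called probe sets, both directions together, by over 1.5 times, but scaling to the hybridization controls moved the called genes with dexamethasone against incubated from 2280 higher and 2937 lower to 531 and 7573. Beyond the construction of each setting, the cause of these changes was not tested.

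The signals have no detection calls, so values near 200, as for Tgfb1 and Inhba, are limited by an unknown background. The 3 chips of pooled tissue in each group leave the spread between animals unmeasured.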
